A study of Mus musculus with 33 samples.

Results

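The transcripts of the DNA methylation machinery were followed in mouse embryonic stem cells (ESCs) that lacked members of the HP1 family or the H3K9 methyltransferase SETDB1. The 8 genes were chosen by name out of the 55487 genes in the deposited tables, and all 8 passed the filter on low counts in every comparison. HP1 proteins bind methylated lysine 9 of histone H3 in heterochromatin. *Cbx5* encodes HP1α, *Cbx1* HP1β and *Cbx3* HP1γ. The data are RNA-seq of 33 libraries in 11 groups of 3, all from C57BL/6 ESCs. The *wild-type* controls form set A (titled NK) and set B (titled WT). A single HP1 protein is missing from *Hp1α Δ/Δ*, from *Hp1β Δ/Δ* and from *Hp1γ Δ/Δ* ESCs. The double mutants are named *Hp1α/β Δ/Δ* (lacking HP1α and HP1β), *Hp1α/γ Δ/Δ* (HP1α and HP1γ) and *Hp1β/γ Δ/Δ* (HP1β and HP1γ). All HP1 proteins are lost in the triple mutant, *Hp1α/β/γ Δ/Δ*. *Setdb1 F/F* ESCs carry a floxed *Setdb1* gene, which was deleted by *Cre* in *Setdb1 Δ/Δ* cells. Set A is the control of the single mutants, of *Hp1α/β Δ/Δ* ESCs and of the triple mutant, and set B of the remaining double mutants. Per the study's methods, single and double mutants are constitutive CRISPR/Cas9 knockout lines that grew from individual clones, and the triple mutant was made by *Cre* transfection of cells that lack HP1α and HP1β and carry a floxed *Hp1γ*. A mutation and the clone that carries it cannot be told apart. The labels name *wild-type* cells as controls of the triple mutant, where a legend of the study names control vector in the parental cells, which already lack HP1α and HP1β. Set A had 484 ± 6.05 CPM of *Cbx5* and 439 ± 7.69 CPM of *Cbx1* (SD, n = 3), above the levels of *Hp1α/β Δ/Δ* ESCs (203 ± 4.25 and 96.5 ± 1.76 CPM). ESCs were grown in serum and LIF on mouse embryonic fibroblast feeders, which were depleted before use. The study calls the replicates biological and names independent experiments for the triple mutant. For the other groups the sources do not say that they were separate cultures, and p-values then measure only the spread between these libraries.

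As background, DNA methylation is copied after replication by the maintenance methyltransferase DNMT1, which is brought to hemimethylated sites by UHRF1. DNMT3A and DNMT3B set new methylation, and DNMT3L, which has no catalytic activity of its own, stimulates both. TET1, TET2 and TET3 oxidize 5-methylcytosine and so open the way to its removal. In ESCs the *Tet1* and *Tet2* transcripts fall on differentiation, and the de novo enzymes rise when naive cells move towards the formative epiblast.

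The promoters are shown for 4 of the genes, because the maintenance pair fell together in the triple mutant and because *Dnmt3b* and *Dnmt3l* moved in opposite directions in *Setdb1 Δ/Δ* cells. RefSeq (GRCm38.p6) gives 15 windows for the 8 genes, each from just upstream to just downstream of a start site and 300 bases long. Both strands were searched for the E2F-type words TTTCCCGC, TTTGGCGC, TTTCGCGC and TTTGCCGC, which do not overlap in the windows printed here. Such a word was present in 2 of the 15 windows, 1 of *Dnmt1* and 1 of *Uhrf1*, and in 2.26% of all 32851 windows. It stands in capitals in the window of *Dnmt1* (chr9:20952574-20952873, minus strand) and of *Uhrf1* (chr17:56304063-56304362, plus strand), the former with a word on each strand.
*Dnmt1*: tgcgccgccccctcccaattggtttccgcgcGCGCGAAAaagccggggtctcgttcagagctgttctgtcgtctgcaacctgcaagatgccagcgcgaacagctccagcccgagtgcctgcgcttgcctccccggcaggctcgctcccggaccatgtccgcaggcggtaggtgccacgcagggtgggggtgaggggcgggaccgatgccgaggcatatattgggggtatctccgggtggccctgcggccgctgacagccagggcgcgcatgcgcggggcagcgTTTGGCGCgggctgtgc
*Uhrf1*: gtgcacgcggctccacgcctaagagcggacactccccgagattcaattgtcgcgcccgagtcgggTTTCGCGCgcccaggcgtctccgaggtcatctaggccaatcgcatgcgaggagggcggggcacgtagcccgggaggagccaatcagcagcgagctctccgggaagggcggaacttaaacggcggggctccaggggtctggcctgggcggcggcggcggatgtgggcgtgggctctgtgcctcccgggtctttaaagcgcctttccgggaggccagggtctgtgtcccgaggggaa
In the windows of *Dnmt3b* (chr2:153649199-153649498, plus strand) and the most upstream one of *Dnmt3l* (chr10:78042037-78042336, plus strand), capitals mark each CG dinucleotide, the site of methylation.
*Dnmt3b*: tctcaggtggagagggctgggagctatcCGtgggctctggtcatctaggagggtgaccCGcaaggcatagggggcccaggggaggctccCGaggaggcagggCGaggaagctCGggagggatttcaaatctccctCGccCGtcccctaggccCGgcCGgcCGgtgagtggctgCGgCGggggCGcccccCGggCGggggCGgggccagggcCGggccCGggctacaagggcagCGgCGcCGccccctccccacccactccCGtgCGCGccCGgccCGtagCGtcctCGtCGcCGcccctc
*Dnmt3l*: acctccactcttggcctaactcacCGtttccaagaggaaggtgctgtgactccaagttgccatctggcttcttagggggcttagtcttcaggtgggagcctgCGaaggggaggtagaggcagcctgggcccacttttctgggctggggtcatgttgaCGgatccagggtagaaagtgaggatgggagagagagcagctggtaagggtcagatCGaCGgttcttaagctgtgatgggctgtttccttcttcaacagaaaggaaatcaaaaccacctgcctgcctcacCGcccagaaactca
The *Dnmt3b* window holds 30 CG dinucleotides, more than 88.3% of all windows, and that of *Dnmt3l* holds 6, where the median window holds 7. The printed windows of *Dnmt1* and *Uhrf1* hold 33 each, more than 91.4% of all windows. Every E2F-type word searched contains a CG, so the share of 2.26% is not one of windows equally rich in CG. The other *Dnmt3l* windows hold 4 and 3. The *Tet2* window is the most CG-rich of the 15, with 57. These letters describe the windows, and neither binding nor methylation was measured.

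Total counts per library ran from 17330936 to 25743149. Levels are given as CPM (counts scaled to library size) after TMM scaling over all libraries. TPM, the authors' value per transcript length, is used to set levels of different genes side by side. *Cbx5*, *Cbx1* and *Cbx3* were lower in each mutant that lacks them, with log2 fold changes from −3.27 to −0.81, and *Setdb1* was lower in *Setdb1 Δ/Δ* cells (−0.93). Replicate 2 of the *Hp1α/γ Δ/Δ* ESCs stood apart, with a chi-square of 114 to 122 per gene against the other replicates of its group. All other pairs within a group lay between 1.89 and 11.3, where counting noise alone gives a value near 1. The changes of the 8 genes in this group are given with and without that library. Summed CPM of 10 pluripotency markers, all of them detected in every group, was 1561 to 1607 in the triple mutant and 3729 to 3779 in *wild-type* set A, and the 10 feeder fibroblast markers summed to between 4.72 and 57.6 in any library. In these bulk samples, less RNA per cell cannot be told apart from fewer cells of a type.

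In *wild-type* set A, the most abundant transcript per length was *Dnmt3l* (257 ± 5.45 TPM, SD, n = 3), followed by *Dnmt3b* (238 ± 4.03 TPM), *Uhrf1* (142 ± 0.601 TPM), *Tet1* (109 ± 2.84 TPM), *Dnmt1* (mean between those of *Tet1* and *Dnmt3a*), *Dnmt3a* (66.3 ± 3.71 TPM), *Tet2* (16.8 ± 2.75 TPM) and *Tet3* (2.32 ± 0.118 TPM). *Tet1* made up 85.1% ± 1.72 of the summed TPM of the TET genes there (SD, n = 3). In set B its share was 90.8% ± 0.489. *Tet1* had 153 ± 12.7 TPM in set B, above set A, but its CPM were close, at 872 ± 7.14 and 881 ± 3.27. The TPM of *Tet1* and its share by TPM thus differed between the controls where its CPM did not. *Setdb1 F/F* ESCs differed in make-up from both *wild-type* sets. They had 46.5, 42.1 and 42.3 CPM of *Dnmt3l*, against 302, 291 and 299 in set A, and 139, 136 and 134 CPM of *Dnmt3b*, against 618, 624 and 600.5. *Tet2* was at 232, 225 and 228 CPM in *Setdb1 F/F* ESCs and at 77, 77.3 and 79 in set A. These lines were not tested against each other, and the floxed allele cannot be told apart from the line. For these 3 genes the groups do not overlap.

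**Figure D1:**
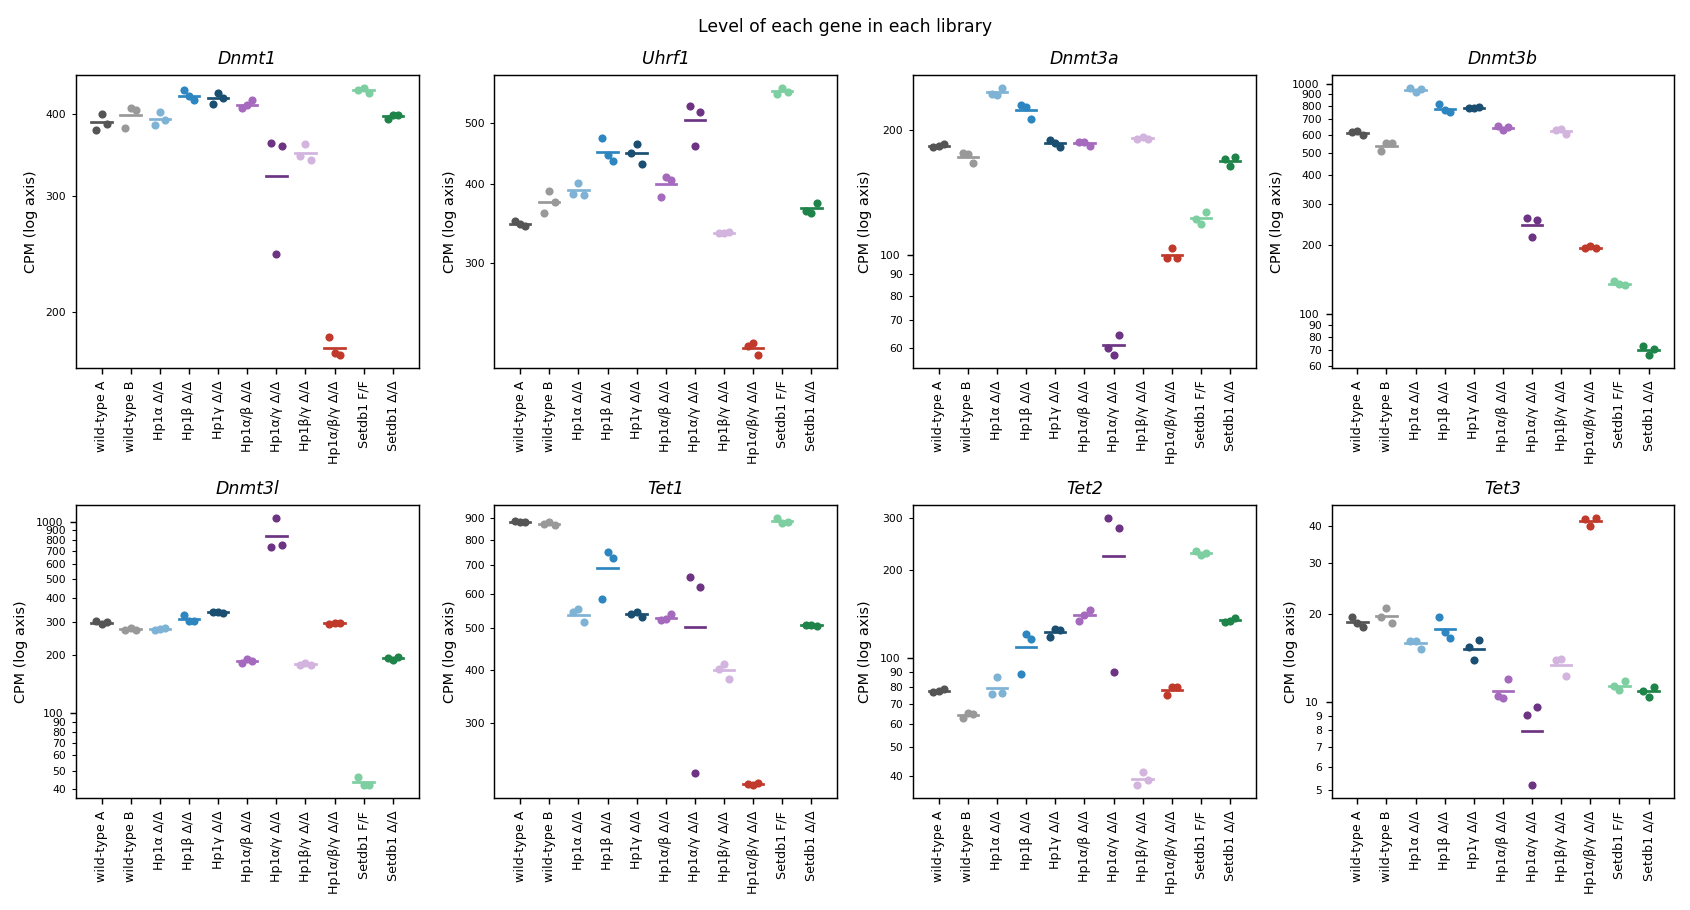
Level of each gene in every library, as CPM on a log axis that differs between panels, with 1 point for each library and a line at the mean of 3. The triple mutant lies lowest for *Dnmt1*, *Uhrf1* (219 CPM on average) and *Tet1* and highest for *Tet3*, and the *Hp1α/γ Δ/Δ* ESCs have 1 library apart from the other 2 for *Tet1* and *Tet2*.

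The loss of all 3 HP1 proteins was set against *wild-type* set A. *Tet1*, *Dnmt3b* and *Dnmt1* fell by over 1 on the log2 scale, *Dnmt3a* and *Uhrf1* fell by less, and *Tet3* rose by over 1. *Dnmt3l* and *Tet2* did not pass the test. Of the 8 genes, 4 were deregulated, which requires both an adjusted p under 0.05 and a log2 fold change above 1 or below −1, as were 42.3% of all genes tested. With the adjusted p alone 6 of 8 passed, against 81.6% of all genes. The median log2 fold change was −0.80 over the 8 genes and 0.035 over all genes.

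Of the maintenance genes, *Dnmt1* (ENSMUSG00000004099, chromosome 9 from 20907209 to 20959888, minus strand of GRCm38) had 183, 173 and 172 CPM in the triple mutant and 379, 401 and 387 in *wild-type* set A. The groups do not overlap, and the mutant mean was the lowest of the 11 groups. Its log2 fold change was −1.17 (SE 0.0306, adjusted p = 2.33e-17) by the quasi-likelihood test of edgeR, adjusted after Benjamini and Hochberg. *Uhrf1* (ENSMUSG00000001228, chromosome 17 from 56303321 to 56323486, plus strand) had 221, 223 and 214 CPM in the triple mutant against 349, 346 and 343, without overlap. The log2 fold change was −0.69 (SE 0.0254, adjusted p = 5.07e-15), under the fold threshold. Its mean was again the lowest of all groups.

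Of the de novo genes, *Dnmt3b* (ENSMUSG00000027478, chromosome 2 from 153649450 to 153687730, plus strand) had 193, 197 and 193 CPM in the triple mutant and 618, 624 and 600.5 in set A. The log2 fold change was −1.69 (SE 0.0243, adjusted p = 3.79e-21). *Dnmt3a* (ENSMUSG00000020661, chromosome 12 from 3806007 to 3914443, plus strand) had 98.4, 104 and 98.7 against 182, 183 and 185 CPM, or a log2 change of −0.90 (SE 0.0334, adjusted p = 5.69e-15). For both enzymes every mutant library lay below every *wild-type* library. Their cofactor *Dnmt3l* (ENSMUSG00000000730, chromosome 10 from 78041947 to 78063622, plus strand) had 292, 296 and 294 CPM in the mutant and 302, 291 and 299 in the *wild-type*, and the groups overlap. Its log2 fold change was −0.04 (SE 0.0248, adjusted p = 0.121), which turned to 0.09 when set B replaced set A (adjusted p = 0.0404). By TPM, *Dnmt3l* made up 63.1% ± 0.655 of the summed *Dnmt1*, *Dnmt3a*, *Dnmt3b* and *Dnmt3l* transcripts in the triple mutant and 38.9% ± 0.914 in set A (SD, n = 3), and *Dnmt3b* made up 16.5% ± 0.665 and 36% ± 0.642.

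Of the oxidases, *Tet1* (ENSMUSG00000047146, chromosome 10 from 62804570 to 62908996, minus strand) had 217, 216 and 218 CPM in the triple mutant and 885, 879.7 and 879 in set A, the greatest fall among the 8 genes. The log2 fold change was −2.05 (SE 0.0218, adjusted p = 6.37e-23). *Tet2* (ENSMUSG00000040943, chromosome 3 from 133463679 to 133545139, minus strand) had 74.9, 79.7 and 80.0 against 77, 77.3 and 79 CPM. These groups overlap, and the log2 change of −0.02 (SE 0.0437, adjusted p = 0.682) became 0.26 against set B (adjusted p = 0.000232), in which *Tet2* was lower than in set A. *Tet3* (ENSMUSG00000034832, chromosome 6 from 83362373 to 83459084, minus strand), the least abundant of the 8 genes, had 42.3, 40.0 and 42.6 CPM in the mutant and 19.5, 18.7 and 18.1 in the *wild-type*. It had the highest level of the 11 groups in the triple mutant, at a log2 change of 1.12 (SE 0.0633, adjusted p = 3.87e-12). The other genes of its chromosome 6 had a median log2 fold change of 0.38 in this comparison, 0.34 above that of all genes, whose part in the change of *Tet3* was not tested. The share of *Tet3* in the summed TET TPM was 10% ± 0.288 in the mutant and 1.81% ± 0.144 in set A, and that of *Tet1* was 61% ± 3.41 and 85.1% ± 1.72 (SD, n = 3).

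Markers of cell state moved in the same comparison. Of the 10 pluripotency markers, 7 were down-regulated with the fold threshold and 0 were up-regulated, with a median log2 fold change of −1.26. *Esrrb*, an orphan nuclear receptor of naive cells named here after its value was seen, was the 1 marker that rose (0.23, below the fold threshold). Of 6 formative epiblast markers, 5 were tested and 3 fell past the threshold. Of 8 primitive endoderm markers, 7 were tested, 4 were called higher and 1 lower past it. *Gata6* and *Sox17*, chosen here after their values were seen, were both at 0.234 CPM in set A, so they passed the count filter through the mutant and had to differ. *Pdgfra*, also called higher, was at 0.323 to 0.601 CPM in set A, near the floor of that filter. The count of 4 endoderm rises thus rests mainly on genes near that floor. The summed level of the list was 299.6 to 309 CPM against 555 to 567. Most of that sum came from *Sparc* (207 against 311 CPM) and *Lamb1* (79.0 against 242 CPM), so it says little of the other markers. Feeder markers summed to 12.4 to 13.9 CPM against 27.8 to 29.8 in set A. Markers of cells that resemble the 2-cell embryo summed to 15.6 to 17.3 CPM in the triple mutant, where all 8 were at 0 in set A. Their part in the values of the 8 genes was not tested.

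A further comparison set the triple mutant against *Hp1α/β Δ/Δ* ESCs, which retain HP1γ by the labels. *Cbx3* was lower in the triple mutant (−1.55), but *Cbx1* was lower too (−1.09) and *Cbx5* higher (0.44, all 3 called by adjusted p), so the transcripts of HP1α and HP1β differed as well. All 8 genes passed the adjusted p, against 80.6% of genes tested, and 4 were deregulated with the fold threshold, against 41.4%. *Dnmt3b* (−1.76), *Tet1* (−1.32) and *Dnmt1* (−1.27) fell and *Tet3* rose (1.90, standard error 0.0788). *Dnmt3a* fell by 0.92 and *Uhrf1* by 0.90. *Tet2* fell by 0.87, from 134, 141 and 146 CPM, and *Dnmt3l* rose by 0.62, from 183, 192 and 188 CPM. Neither of the latter was called against set A. The other genes of chromosome 6 lay 0.31 above the median of all genes here, and their part in the value of *Tet3* was not tested.

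**Figure D2:**
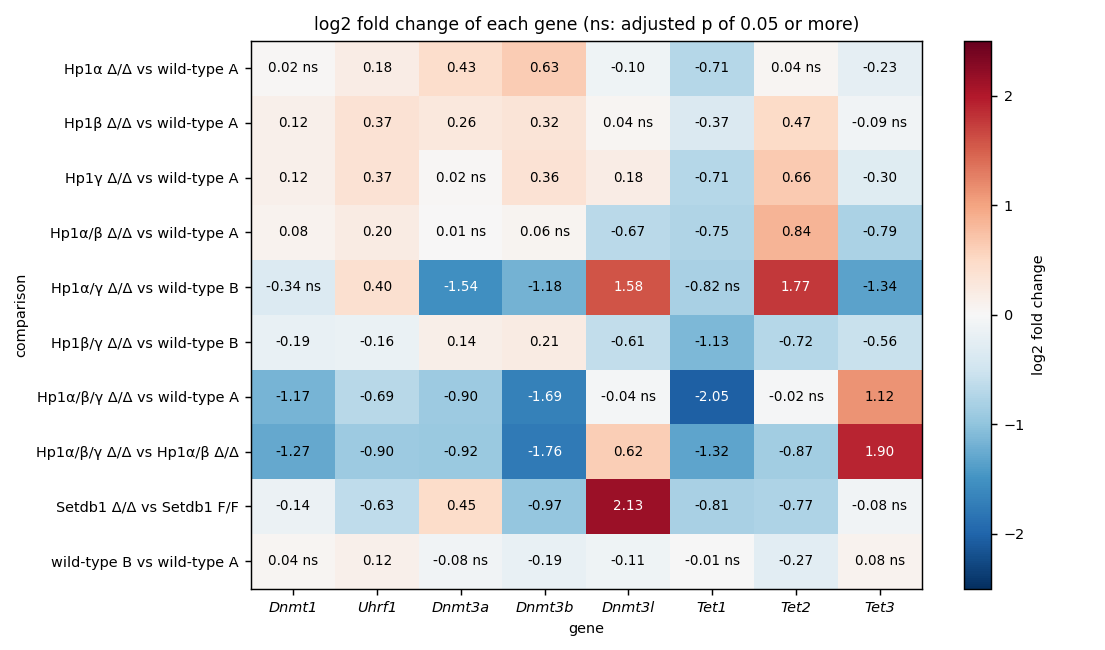
log2 fold change of each gene (columns) in each comparison of 2 groups (rows), in red where the first group is higher and in blue where it is lower, with the value in each cell and ns for an adjusted p of 0.05 or more by edgeR. *Tet1* is lower in every mutant, from −0.37 to −2.05 (ns in *Hp1α/γ Δ/Δ* ESCs), and the comparison of the *wild-type* sets holds the smallest range, from −0.27 to 0.12.

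The single mutants asked what 1 HP1 protein contributes. None of the 8 genes reached the fold threshold in any of them by edgeR or DESeq2, with values from −0.71 to 0.66, where 4.87% of genes did in *Hp1α Δ/Δ*, 9.1% in *Hp1β Δ/Δ* and 5.59% in *Hp1γ Δ/Δ* ESCs. With the adjusted p alone 6, 6 and 7 of the 8 passed, against 45.0%, 51.1% and 46.7% of genes. All 3 comparisons use *wild-type* set A. *Tet1* was lower in each, with 543, 553 and 515 CPM in *Hp1α Δ/Δ*, 585, 750.4 and 727 in *Hp1β Δ/Δ* and 539, 545 and 531 in *Hp1γ Δ/Δ* ESCs, below the *wild-type* values of 885, 879.7 and 879. The log2 fold changes were −0.71, −0.37 and −0.71. The call of *Tet1* in *Hp1β Δ/Δ* ESCs was lost in 1 fit of all 33 libraries (−0.36, adjusted p = 0.123). *Hp1β Δ/Δ* replicate 1 had less *Tet1* and *Tet2* than the other libraries of its group. *Dnmt3b* was higher in each, with 959.5, 921 and 949 CPM in *Hp1α Δ/Δ* ESCs, or a log2 change of 0.63 (SE 0.0218, adjusted p = 1.07e-14) that was the largest rise of these comparisons apart from that of *Tet2* in *Hp1γ Δ/Δ* ESCs.

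*Dnmt3a* rose in *Hp1α Δ/Δ* (0.43) and *Hp1β Δ/Δ* ESCs (0.26), and its value in *Hp1γ Δ/Δ* ESCs was 0.02 (adjusted p = 0.556). *Uhrf1* rose in all 3 single mutants, by 0.18, 0.37 and 0.37, although the first was no longer called against *wild-type* set B (0.08, adjusted p = 0.127). *Dnmt1* lay within 0.12 of set A on the log2 scale in all of them. Its rise in *Hp1β Δ/Δ* ESCs (0.12) was lost without set A replicate 1 (0.10, adjusted p = 0.0775) or 3 (0.12, adjusted p = 0.0577). That call was also lost against set B (0.09, adjusted p = 0.123) and in 1 fit of all 33 libraries (0.14, adjusted p = 0.186). *Dnmt3l* fell in *Hp1α Δ/Δ* (−0.10) and rose in *Hp1γ Δ/Δ* ESCs (0.18). The former turned to 0.03 against set B (adjusted p = 0.579), and both calls were lost in 1 fit of all 33 libraries (adjusted p = 0.332 and 0.0804). *Tet3* fell in the same mutants, by 0.23 and 0.30, and the former call was lost without *Hp1α Δ/Δ* replicate 3 (−0.20, adjusted p = 0.0782) or set A replicate 1 (−0.21, adjusted p = 0.0784). DESeq2 did not call that fall either (−0.23, adjusted p = 0.0634), nor did 1 fit of all 33 libraries (−0.24, adjusted p = 0.138). *Tet2* rose in *Hp1β Δ/Δ* ESCs, with 88.9, 121 and 116 CPM and a log2 value of 0.47 (SE 0.0972, adjusted p = 0.00205), a call lost in 1 fit of all 33 libraries (adjusted p = 0.0727). In *Hp1α Δ/Δ* ESCs *Tet2* was at 0.04 (adjusted p = 0.52), and at 0.32 against set B (adjusted p = 0.000223). *Tet2* also rose in *Hp1γ Δ/Δ* ESCs, with 118, 126 and 125 CPM against 77, 77.3 and 79 and its log2 change was 0.66 (SE 0.0391, adjusted p = 1.01e-10). In *Hp1α Δ/Δ* ESCs the 6 formative epiblast markers summed to 116 to 121 CPM, against 47 to 52.8 in set A, and 5 of 6 were up-regulated with the fold threshold. Only 4 of the 6 reached a mean of 1 CPM in set A. *Fgf5* was not tested in the triple mutant against set A, so it passed the count filter here with the help of the *Hp1α Δ/Δ* libraries. The count of rises may thus rest in part on genes near the floor of that filter. The part of these markers in the rise of *Dnmt3a* and *Dnmt3b* was not tested.

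The 3 double mutants differed from their controls in different ways. In *Hp1α/β Δ/Δ* ESCs none of the 8 genes reached the fold threshold, against 8.15% of genes, and 6 passed the adjusted p, against 43.4%. *Tet2* rose to 134, 141 and 146 CPM, or a log2 change of 0.84 (SE 0.0447, adjusted p = 7.21e-11), while *Tet3* fell by 0.79, *Tet1* by 0.75 and *Dnmt3l* by 0.67. Against set B, the rise of *Tet2* passed the fold threshold (1.12). *Dnmt3a* (0.01, adjusted p = 0.761) and *Dnmt3b* (0.06, adjusted p = 0.0838) did not pass the test. *Uhrf1* rose by 0.20, which was no longer called against set B (0.09, adjusted p = 0.151). The rise of *Dnmt1* by 0.08 was lost without *Hp1α/β Δ/Δ* replicate 2 or 3 or without set A replicate 1 or 3, with values between 0.06 and 0.09. Of 8 feeder markers tested 5 rose and 1 fell past the fold threshold, and the list summed to 44.8 to 53.4 CPM against 27.8 to 29.8. Of 6 formative epiblast markers 3 rose and 1 fell past it, with sums of 88.2 to 96 against 47 to 52.8 CPM. In set A only 4 of these 6, and 5 of the 10 feeder markers listed, reached a mean of 1 CPM. Both counts of rises may thus rest in part on genes near the floor of the count filter. The part of these markers was not tested.

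In *Hp1β/γ Δ/Δ* ESCs, set against *wild-type* set B, *Tet1* was the only one of the 8 genes to reach the fold threshold, against 11.9% of genes, while all 8 passed the adjusted p, against 51.7%. *Tet1* had 402, 412 and 381 CPM and 869.7, 881 and 867 in set B, or a log2 change of −1.13 (SE 0.04, adjusted p = 4.43e-12). *Tet2* fell by 0.72, to 37.2, 41.2 and 38.7 CPM, the lowest level of the 11 groups. *Dnmt3l* fell by 0.61, *Tet3* by 0.56 and *Dnmt1* by 0.19. *Dnmt3b* (0.21) and *Dnmt3a* (0.14) rose and *Uhrf1* (−0.16) fell, but none of these 3 was called against set A. Without set B replicate 3 *Dnmt3a* was no longer called (0.12, adjusted p = 0.0749). The 2-cell-like markers summed to 47.2 to 47.6 CPM in this mutant, all 8 of them detected at a mean of 1 CPM or more, and their part was not tested.

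*Hp1α/γ Δ/Δ* ESCs showed the widest changes among the double mutants. Of the 8 genes, 5 reached the fold threshold against set B, where 23.1% of genes did, and 6 passed the adjusted p, against 46.5%. Without replicate 2 the counts were 5 and 8, against 23.4% and 67.1% of genes. *Dnmt3l* had 738, 1044 and 754 CPM and 273, 277 and 272 in set B, without overlap. Its log2 fold change was 1.58 (SE 0.139, adjusted p = 0.000197), and 1.44 (adjusted p = 1.8e-11) without replicate 2. *Dnmt3a* had 60.1, 57.8 and 64.4 CPM against 176, 175 and 166, the lowest level of all groups. Its log2 fold change was −1.54 (SE 0.108, adjusted p = 9.79e-05), and −1.47 (adjusted p = 1.83e-10) without replicate 2. The replicates are close for this gene. *Dnmt3b* had 261, 216 and 256 CPM against 511, 552 and 553, or a log2 change of −1.18 (SE 0.131, adjusted p = 0.000473), and −1.06 (adjusted p = 1.45e-09) without replicate 2. The cofactor was thus higher and both enzymes lower in the same libraries.

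The TET genes of this mutant depended on replicate 2. *Tet2* had 299.6, 89.8 and 277 CPM against 62.9, 65.3 and 64.8 in set B, and replicates 1 and 3 lie far above replicate 2. The log2 fold change was 1.77 (SE 0.422, adjusted p = 0.0122), and 2.16 (adjusted p = 3.71e-12) without replicate 2. The call was lost without set B replicate 1 (1.75, adjusted p = 0.0555) or 2 (1.77, adjusted p = 0.0508). *Tet1* had 656, 230.2 and 623 CPM against 869.7, 881 and 867, with replicate 2 lowest. Its log2 change of −0.82 (SE 0.37, adjusted p = 0.108) did not pass the test, and without replicate 2 it was smaller and passed, at −0.45 (adjusted p = 1.45e-06). *Tet3* fell by 1.34, to 9.05, 5.21 and 9.61 CPM, and its value without replicate 2 was −1.08 (adjusted p = 5.89e-07). *Dnmt1* likewise passed without replicate 2, at −0.15 (adjusted p = 0.0195), and with it had −0.34 (adjusted p = 0.157). *Uhrf1* rose by 0.40 (adjusted p = 0.0289), and by 0.49 (adjusted p = 1.34e-06) without replicate 2. The call was lost without any 1 of the other libraries of either group, with values between 0.35 and 0.42. Pluripotency markers summed to 6191 to 8717 CPM in this mutant (6191 to 6369 without replicate 2) and to 3672 to 3734 in set B. All 7 feeder markers tested fell past the threshold, and the list summed to 9.98 to 11.3 CPM against 48.4 to 57.6, with *Twist2* and *Postn* at 0. Only 2 of the 10 listed reached a mean of 1 CPM in the mutant, against 6 in set B. Most of those tested were thus near or below the floor of the count filter in the mutant. Their fall was in part fixed by that filter. The part of these markers was not tested.

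The *wild-type* sets gave the spread between controls. With set B against set A, 0 of 8 genes reached the fold threshold, against 5.68% of genes, and 4 passed the adjusted p of edgeR, against 24.8%. *Tet2* differed most, with 62.9, 65.3 and 64.8 CPM in set B and its log2 change was −0.27 (SE 0.0477, adjusted p = 0.000605). *Dnmt3b* was lower in set B by 0.19. *Dnmt3l* (−0.11) and *Uhrf1* (0.12) were called too, and only 2 of the 8 genes passed the adjusted p without set B replicate 3 or without any 1 library of set A.

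The loss of SETDB1, an enzyme that methylates lysine 9 of histone H3, was set against *Setdb1 F/F* ESCs. *Dnmt3l* rose and was the only one of the 8 genes to reach the fold threshold, against 29.9% of genes. With the adjusted p alone 7 of 8 passed, against 78.9%, with *Dnmt3a* higher and *Dnmt3b*, *Tet1*, *Tet2*, *Uhrf1* and *Dnmt1* lower. The median log2 fold change was −0.38 over the 8 genes and 0.015 over all genes.

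*Dnmt3l* had 194, 189.9 and 196 CPM in *Setdb1 Δ/Δ* cells and 46.5, 42.1 and 42.3 in *Setdb1 F/F* ESCs. Every mutant library lay above every control, and the log2 fold change was 2.13 (SE 0.0376, adjusted p = 1.67e-18). The level reached was still below that of *wild-type* set A (297 ± 5.8 CPM, SD, n = 3), a comparison across lines that was not tested. *Dnmt3b* had 72.6, 66.9 and 71.1 CPM against 139, 136 and 134, the lowest level of the 11 groups, and its log2 change was −0.97 (SE 0.0355, adjusted p = 5.34e-14). *Dnmt3a* had 169.8, 164 and 172 CPM against 122, 119 and 127, or a log2 change of 0.45 (SE 0.0311, adjusted p = 4.33e-10). The de novo genes thus moved in both directions. By TPM, *Dnmt3l* took 47.8% ± 0.205 of the summed DNMT transcripts in the mutant and 16.8% ± 0.764 in the control (SD, n = 3), and *Dnmt1* took 27.2% ± 0.343 and 46% ± 0.881.

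Of the other genes, *Tet1* had 509, 509 and 506 CPM in *Setdb1 Δ/Δ* cells against 899, 875 and 881, or a log2 change of −0.81 (SE 0.0186, adjusted p = 6.9e-17). *Tet2* had 133, 134 and 137 against 232, 225 and 228 CPM, and fell by 0.77. *Uhrf1* fell by 0.63, from 563 ± 6.22 to 366 ± 6.61 CPM (SD, n = 3), and *Dnmt1* by 0.14, from 435 ± 4.15 to 397 ± 3.31 CPM. *Tet3* had 10.9, 10.4 and 11.3 CPM against 11.4, 11 and 11.8 and did not pass the test (−0.08, adjusted p = 0.425). The 2-cell-like markers summed to 53.8 to 58.9 CPM in the mutant and to 0.0558 to 0.199 in the control, and the pluripotency markers to 5259 to 5301 and 7889 to 7924. The feeder markers summed to 4.72 to 6.05 CPM in the mutant and 10.1 to 11.4 in the control. Their part in these values was not tested. On the scale of the authors' TPM, the median gene lay 0.50 higher in *Setdb1 Δ/Δ* cells on the log2 scale, 0.40 higher in the triple mutant against set A and 0.35 lower in *Hp1α/γ Δ/Δ* ESCs. Relative to that median, none of the called changes of the 8 genes turned.

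**Figure D3:**
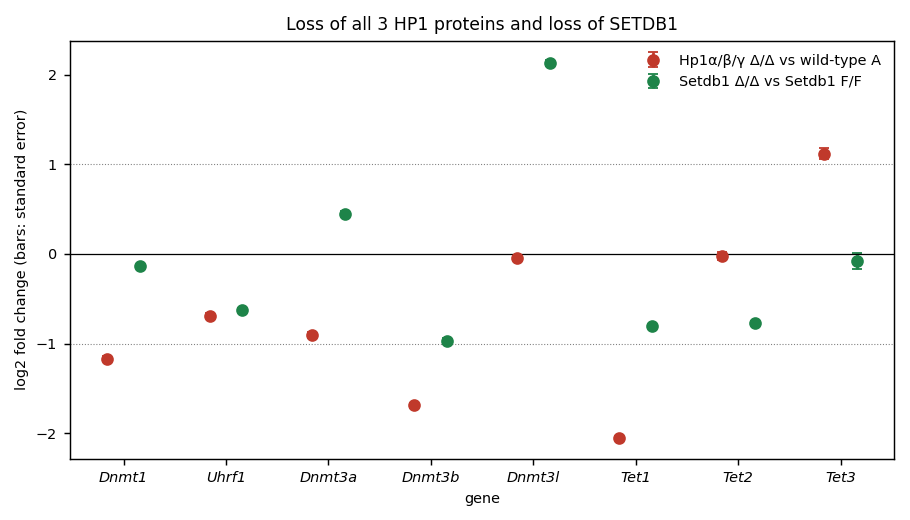
log2 fold change of each gene after loss of all 3 HP1 proteins (red, against *wild-type* set A) and after loss of SETDB1 (green, against *Setdb1 F/F*), with bars of 1 standard error and dotted lines at 1 and −1. *Dnmt3l* stands at 2.13 in green and −0.04 in red, and *Tet3* at 1.12 in red and −0.08 in green.

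The responses to the loss of HP1 and of SETDB1 were compared in 1 fit of the 12 libraries. The difference of the log2 fold changes, triple mutant minus *Setdb1* mutant, passed the adjusted p for all 8 genes, against 64.9% of genes, and exceeded 1 for 5, against 31.9%. It was −2.20 (SE 0.045, adjusted p = 3.98e-21) for *Dnmt3l*, which rose after loss of SETDB1. It was −1.37 for *Dnmt3a*, which fell in the triple mutant and rose in *Setdb1 Δ/Δ* cells. *Tet1* (−1.27), *Dnmt1* (−1.06) and *Dnmt3b* (−0.75) fell in both mutants and fell further in the triple mutant. *Tet3* (1.17) rose in the triple mutant. The difference of −0.08 for *Uhrf1* (adjusted p = 0.0252) was lost under 11 other settings, among them RLE size factors (−0.04, adjusted p = 0.292) and leaving out any 1 library of either mutant (−0.04 to −0.07). That of *Tet2* (0.72) became −0.14 (adjusted p = 0.0289) when the triple mutant was set against *Hp1α/β Δ/Δ* ESCs. The parental lines differ between these experiments and cannot be told apart from the genotype.

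The levels of the 8 genes had no common order over the 11 groups. The triple mutant was lowest for *Dnmt1*, *Uhrf1* and *Tet1*, *Setdb1 Δ/Δ* cells for *Dnmt3b*, *Setdb1 F/F* ESCs for *Dnmt3l*, *Hp1α/γ Δ/Δ* ESCs for *Dnmt3a* and *Tet3*, and *Hp1β/γ Δ/Δ* ESCs for *Tet2*. In each case the lowest group did not overlap the next one. For *Dnmt1* the 8 highest groups, from 435 ± 4.15 CPM in *Setdb1 F/F* to 389 ± 11.2 CPM in *wild-type* set A (SD, n = 3), each overlapped their neighbour in the order. For *Tet1*, *Setdb1 F/F* and both *wild-type* sets formed an overlapping top, at 885 ± 12.6, 881 ± 3.27 and 872 ± 7.14 CPM (SD, n = 3). The order of *Dnmt3b* runs from 943 ± 19.7 CPM in *Hp1α Δ/Δ* to 70.2 ± 2.93 CPM in *Setdb1 Δ/Δ* cells (SD, n = 3), the widest span of the methyltransferases with activity.

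The genes whose group means followed each of the 8 most closely were found by Pearson's r of log2(CPM + 1) over the 11 groups. The search covered 12240 genes with at least 5 CPM in a group. Genes named only by a Gm, Rik or AC code or by a gene identifier were left out beforehand. For *Dnmt1* they were *Prkd3* (0.981), *Kmt2d* (0.979) and *Cenpc1* (0.971). *Uhrf1* was followed by *Pole2* (0.981), *Fdxacb1* (0.976) and *Usp4* (0.974), the first of which encodes a subunit of DNA polymerase epsilon. For *Dnmt3a* they were *Nsmaf* (0.962), *Slc35e3* (0.957) and *Ssbp3* (0.953), for *Dnmt3b* *C1qtnf1* (0.988), *Map6* (0.987) and *Spop* (0.98), and for *Dnmt3l* *Twnk* (0.911), *Snapc1* (0.906) and *Ube2z* (0.896). Among the oxidases, *Tet1* was followed by *Macf1* (0.965), *Prodh* (0.961) and *Kif5a* (0.945), *Tet2* by *Myo1f* (0.952), *Tiparp* (0.927) and *Esrrb* (0.922), and *Tet3* by *St8sia1* (0.946), *Cep120* (0.945) and *Hdac9* (0.938). These are descriptions over 11 groups that share their genotypes and libraries. The means of *Hp1α/γ Δ/Δ* ESCs include replicate 2, which stood apart for *Tet1* and *Tet2*, and no r was computed without it.

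**Figure D4:**
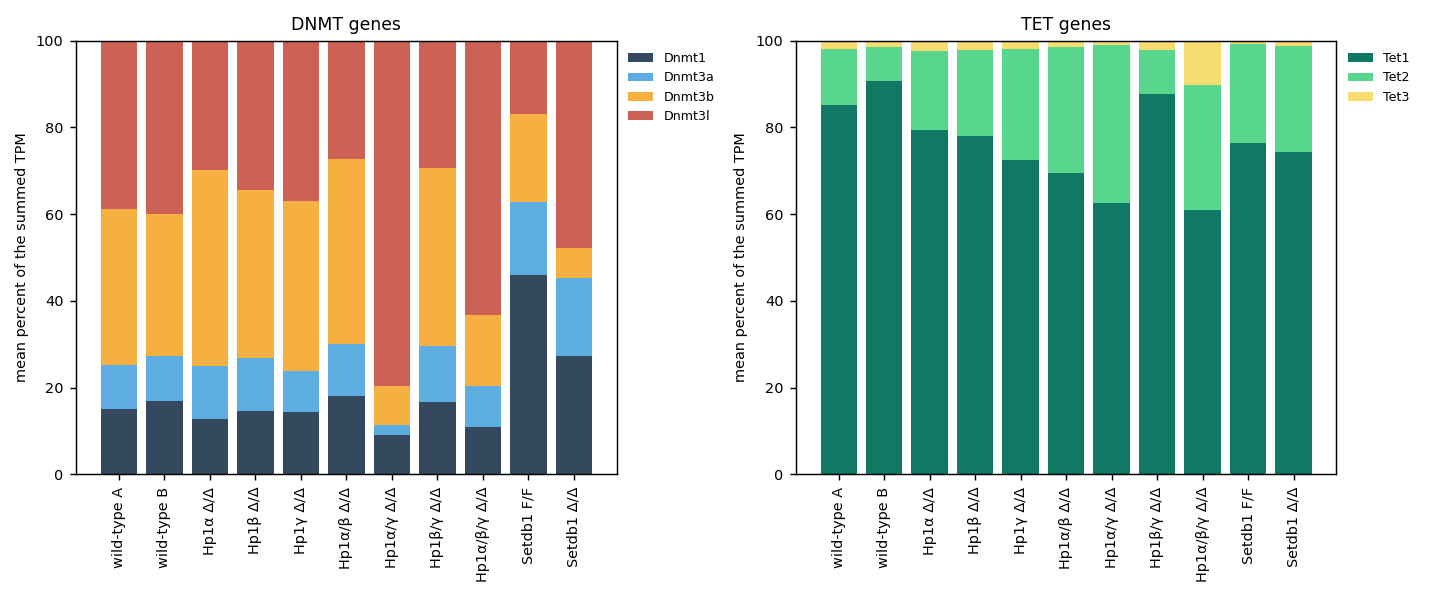
Mean share of each gene in the summed TPM of the DNMT genes (left) and of the TET genes (right) in each group, in percent, averaged over 3 libraries. The share of *Dnmt3l* is highest in *Hp1α/γ Δ/Δ* ESCs, at 79.6% (75.9% and 76.7% in replicates 1 and 3), and lowest in *Setdb1 F/F* ESCs, at 16.8%, and *Tet3* takes 10% in the triple mutant, above its share in every other group.

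Around the 8 genes, lists of partners and downstream steps were followed in the triple mutant and in *Setdb1 Δ/Δ* cells. With the fold threshold, 25.1% of all genes rose and 17.1% fell in the former, and 18.5% rose and 11.4% fell in the latter. Of genes for base excision, which removes oxidized methylcytosine, 4 of 15 rose and 1 fell in the triple mutant (median log2 fold change 0.16), and 2 of 15 rose and 2 fell in *Setdb1 Δ/Δ* cells (median 0.03). In the former, *Gadd45g*, a stress-induced gene, had 62.9 ± 3.54 CPM against 4.17 ± 0.58 CPM (SD, n = 3), *Gadd45b* had 70.6 ± 1.6 CPM against 13.3 ± 1.24 CPM, and the abasic endonuclease *Apex1* had 409 ± 7.29 CPM against 130.4 ± 1.63 CPM. *Lig3*, a DNA ligase, fell by 1.51. In *Setdb1 Δ/Δ* cells *Gadd45g* rose by 4.69, while *Gadd45a* fell by 2.1 and *Parp1*, a sensor of DNA strand breaks, by 1.11.

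Of genes from families that include readers of methylated DNA, 1 of 11 rose and 1 fell in the triple mutant (median 0.28). In *Setdb1 Δ/Δ* cells 1 of 11 rose and 1 fell (median 0.20). *Zfp57*, which protects methylation at imprinted regions, fell in both, with 91.6 ± 3.07 CPM against 338 ± 10.6 CPM in the former and 295 ± 6.79 CPM against 695 ± 8.83 CPM in the latter (SD, n = 3). *Uhrf2*, the paralog of *Uhrf1*, rose in the triple mutant by 1.36, and *Mbd1* rose in *Setdb1 Δ/Δ* cells by 1.24. Of the regulators and partners of the enzymes, 2 of 17 rose and 1 fell in the triple mutant (median −0.49) and 2 of 16 rose and 1 fell in *Setdb1 Δ/Δ* cells (median 0.02). *Dppa3*, which keeps UHRF1 from chromatin, rose in both, by 1.62 and 2.45. *Ogt*, the O-GlcNAc transferase that binds TET proteins, fell by 1.34 in the triple mutant. *Cdca7*, a partner of the remodeler HELLS, fell by 1.05 in *Setdb1 Δ/Δ* cells, where *Zscan4c* was at 11.9 ± 0.576 CPM against 0.0664 ± 0.115 CPM (SD, n = 3). It was at 3.92 ± 0.453 CPM against 0 ± 0 CPM in the triple mutant. *Zscan4c* is 1 of the 2 rises counted in each mutant, and it had to differ, because it passed the count filter through the mutant alone.

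Methyl donor metabolism makes the S-adenosylmethionine that the methyltransferases use. Of its 14 genes tested, 0 rose and 5 fell in the triple mutant (median −0.69), and 0 of 13 rose and 4 fell in *Setdb1 Δ/Δ* cells (median −0.73). *Tdh*, the threonine dehydrogenase of mouse ESCs, had 38.3 ± 0.859 CPM against 193 ± 0.587 CPM in the former and 134 ± 2.38 CPM against 533 ± 3.77 CPM in the latter (SD, n = 3). *Shmt2*, the mitochondrial serine hydroxymethyltransferase, fell by 1.52 and 1.90. *Ahcy*, which clears S-adenosylhomocysteine, fell by 2.08 in the triple mutant. *Gcat*, a symbol that stands for 2 gene identifiers, both counted here, fell by 1.12 in *Setdb1 Δ/Δ* cells for ENSMUSG00000006378. The other identifier of *Gcat* was unchanged there (−0.02, adjusted p = 0.93). The falls counted in *Setdb1 Δ/Δ* cells include *Gnmt*, at 0.26 ± 0.06 CPM against 0.792 ± 0.141 CPM (SD, n = 3), near the floor of the count filter. Replication genes, with which *Dnmt1* and *Uhrf1* are expressed in cycling cells, were at a median of −0.19 in the triple mutant, where 1 of 16 rose and 3 fell, and of −0.70 in *Setdb1 Δ/Δ* cells, where 1 of 16 rose and 4 fell. Cyclin E1 (*Ccne1*), *Rrm2* and *Gins1* fell past the threshold in both, by 1.11, 1.08 and 1.20 and by 1.93, 1.30 and 1.15. *Pola1* rose in the triple mutant by 1.01 and *Ccne2* in *Setdb1 Δ/Δ* cells by 1.09.

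Germline genes that promoter methylation keeps silent in other cells were mostly up-regulated. In the triple mutant 9 of 11 rose and 0 fell (median 1.85), and in *Setdb1 Δ/Δ* cells 11 of 11 rose and 0 fell (median 6.24). The study named some of them from these samples, so this is no independent evidence of a direction. Those near 0 in the controls passed the count filter through the mutant alone and had to differ. *Tex101*, a germ cell surface protein, had 13.4 ± 0.41 CPM against 0.405 ± 0.172 CPM in the triple mutant and 207 ± 0.562 CPM against 0.161 ± 0.0414 CPM in *Setdb1 Δ/Δ* cells (SD, n = 3). *Taf7l*, a testis paralog of a TFIID subunit, had 11.1 ± 1.29 CPM against 1.58 ± 0.00891 CPM and 315 ± 12.2 CPM against 2.8 ± 0.328 CPM. *Syce1*, of the synaptonemal complex, rose by 2.95 in the triple mutant, and *Dazl*, an RNA-binding protein of germ cells, rose by 6.56 in *Setdb1 Δ/Δ* cells. Methylation of their promoters was not measured.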

How the data were processed

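RNA-seq was analysed for 33 libraries in 11 groups, taken from the labels. The authors deposited estimated counts (expected counts, not normalized) and TPM per gene. The submitters' processing notes name TopHat2 2.1.1, RSEM, edgeR and GRCm38.p5, with no roles. The study's text names a stranded total RNA kit and the labels a TruSeq RNA kit. Columns of the authors' fold changes and p-values were not used. Replicates are called biological by the study.

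Counts were rounded. Each comparison was fitted on its 6 libraries in edgeR 4.0.16 (R 4.3.3, limma 3.58.1) with filterByExpr at a minimum count of 10, TMM, glmQLFit and glmQLFTest, and p-values were adjusted by Benjamini-Hochberg over all genes tested. The response to HP1 loss was tested against that to SETDB1 loss over 12 libraries. With 3 against 3 libraries an exact permutation p cannot go below 0.1. The 8 genes and all lists were chosen with earlier results of these data known. List genes named are up to 3 rises and 3 falls per list and comparison, among deregulated genes with at least 5 CPM and groups without overlap. Positions are from GENCODE M21, matched for 55141 of 55487 genes. In the list of regulators, the symbols of *Cxxc1*, *Cxxc4* and *Cxxc5* were corrected after the data were opened. Alternatives were RLE, DESeq2 1.42.0, other count filters, 1 fit of all libraries, a replicate block, other controls and each library left out. The fits were tested on simulated data.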

Additional observations from a re-analysis of the deposited data

Results flagged for a closer look

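The test of the difference between the responses to the loss of all 3 HP1 proteins and to the loss of SETDB1 passed an adjusted p under 0.05 for each of the 8 genes, in an edgeR fit of 12 libraries. The difference of the log2 fold changes, *Hp1α/β/γ Δ/Δ* minus *Setdb1 Δ/Δ*, was −2.20 for *Dnmt3l*, −1.37 for *Dnmt3a*, −1.27 for *Tet1*, −1.06 for *Dnmt1*, −0.75 for *Dnmt3b* and −0.08 for *Uhrf1*. It was 1.17 for *Tet3* and 0.72 for *Tet2*. Of all genes tested, 64.9% passed the same test, so a difference between these mutants is common. The largest differences were those of *Dnmt3l*, at 294 ± 2.04 against 297 ± 5.8 CPM in the one experiment and 193 ± 2.94 against 43.6 ± 2.53 CPM in the other (SD, n = 3), and of *Dnmt3a*. That of *Uhrf1* is small and was lost under other scalings.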

How the results depend on the processing

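The 88 log2 fold changes of the 8 genes were compared with 1168 values from other settings, of which 1083 kept their direction and side of an adjusted p of 0.05, 62 lost the call, 11 gained it and 12 changed sign. Of the sign changes, 11 concern values within 0.1 of 0, the called fall of *Dnmt3l* in *Hp1α Δ/Δ* ESCs among them, and 1 the called difference of *Tet2*. In the triple mutant against set A, *Tet2* was 0.01 with RLE size factors, DESeq2, or 1 fit of all 33 libraries, −0.05 to 0.01 with a library left out, 0.08 with a floor of 10 counts per library and 0.26 with the other *wild-type* set, and *Dnmt3l* was 0.05 with that floor and 0.09 with the other set. In *Hp1α Δ/Δ* ESCs, *Dnmt1* (−0.00094) and *Dnmt3l* (0.03) turned with the other set and *Tet2* ran from −0.02 to 0.07 with a library left out. The difference of *Tet2* between the responses to HP1 and SETDB1 loss went from 0.72 to −0.14 with *Hp1α/β Δ/Δ* ESCs as control. Of the counts of genes called, with 1 fit of all 33 libraries those past the adjusted p alone were 3 in *Hp1β Δ/Δ*, 4 in *Hp1γ Δ/Δ* and 1 between the *wild-type* sets. With the other *wild-type* set they were 5 in *Hp1β/γ Δ/Δ*, and 1 gene instead of 0 passed the fold threshold in *Hp1α/β Δ/Δ* ESCs. Between the *wild-type* sets, leaving out 1 library gave 2 to 4. The cause was not tested. Equal replicate numbers did not pair the samples (r from −0.0618 to 0.0556 over 30 pairs). The replicate block gave 5 instead of 6 genes in *Hp1α/γ Δ/Δ* ESCs, where *Uhrf1* was no longer called (0.39, adjusted p = 0.077), and 3 instead of 4 between the *wild-type* sets, and the same counts elsewhere. TPM ratios, chosen after seeing the data, turned no called value.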
